A study of Mus musculus with 4 samples.

Results

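The genes described here are 10 transcription factors of the myeloid lineages, Spi1, Cebpa, Cebpb, Cebpe, Gfi1, Irf8, Klf4, Nr4a1, Pou2f2 and Zeb2, chosen by name out of 31053 genes and present in all 4 count tables. They were read out of single cells by 10x Genomics 3′ chemistry, which tags every captured mRNA with a unique molecular identifier (UMI), from bone marrow of the femur and tibia depleted of red cells. Each of 4 genotypes on C57/B6, at 12 months of age, gave 1 library. TWT mice were IL6+/+, mDia1+/+ and miR146a+/+. DKO mice lacked mDia1, an actin-nucleating formin encoded by Diaph1, and miR146a (mDia1-/-, miR146a-/-, IL6+/+). TKO mice lacked IL6 as well (IL6-/-, mDia1-/-, miR146a-/-), and IL-6 KO mice lacked IL6 alone (IL6-/-, mDia1+/+, miR146a+/+). The deletions were constitutive, and the sources used here do not state the number of mice behind each library. The question was how the levels of these factors, in each cell class and over the whole marrow, differed in DKO from TWT, and whether TKO differed in the same way. Since each genotype had a single library, genotypes could not be tested against each other. Levels are given as CPM, the UMIs of a gene per 1000000 UMIs of all genes, both summed over the cells of a class. Where 4 values follow each other with no names, they are those of TWT, IL-6 KO, DKO and TKO, in this order. Intervals are exact 95% intervals that cover counting error only, not the spread between mice. A 3′ tag count does not allow levels of different genes to be ranked against each other, so levels are compared within a gene.

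These factors act in a known order along the myeloid tree. Spi1 (PU.1) and Cebpa open the myeloid program in multipotent progenitors. Gfi1 and then Cebpe drive the granulocytic branch, in which Cebpe is needed for secondary granules, whereas Irf8, with Klf4 and Zeb2, drives monocytes and dendritic cells. Cebpb serves granulopoiesis under inflammatory demand and the maturation and survival of monocytes. Nr4a1, an orphan nuclear receptor and immediate early gene, is needed for non-classical (Ly6C-low) patrolling monocytes, a cell type in which Pou2f2, an octamer-binding factor better known from B cells, is also expressed.

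The promoters of 3 of the genes are shown because these genes gave the differences between DKO and TWT in monocytes described further on. They are the reference sequence of RefSeq on GRCm38.p6, from 250 bases before to 50 bases after the start of transcription, on the plus strand. In Nr4a1 and Cebpb, capitals mark TGACGCA (a match on the minus strand reads TGCGTCA), a variant of the cAMP response element TGACGTCA. In Irf8, capitals mark TTCNNNGAA, the GAS element that STAT proteins bind. Both strands were searched, and the motifs were chosen after these windows had been read.
Nr4a1 (chr15:101266596-101266895): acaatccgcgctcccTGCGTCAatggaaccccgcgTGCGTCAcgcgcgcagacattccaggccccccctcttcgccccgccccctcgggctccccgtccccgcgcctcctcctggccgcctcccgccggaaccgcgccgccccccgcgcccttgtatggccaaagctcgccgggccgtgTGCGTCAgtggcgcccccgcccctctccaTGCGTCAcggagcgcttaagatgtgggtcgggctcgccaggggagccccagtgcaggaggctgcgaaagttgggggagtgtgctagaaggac
Cebpb (chr2:167688665-167688964): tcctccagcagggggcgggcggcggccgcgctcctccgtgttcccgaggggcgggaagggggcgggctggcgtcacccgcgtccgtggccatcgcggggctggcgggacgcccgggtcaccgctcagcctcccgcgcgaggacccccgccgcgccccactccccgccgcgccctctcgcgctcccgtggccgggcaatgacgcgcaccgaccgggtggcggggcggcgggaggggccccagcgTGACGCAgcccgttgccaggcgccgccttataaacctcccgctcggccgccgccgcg
Irf8 (chr8:120736108-120736407): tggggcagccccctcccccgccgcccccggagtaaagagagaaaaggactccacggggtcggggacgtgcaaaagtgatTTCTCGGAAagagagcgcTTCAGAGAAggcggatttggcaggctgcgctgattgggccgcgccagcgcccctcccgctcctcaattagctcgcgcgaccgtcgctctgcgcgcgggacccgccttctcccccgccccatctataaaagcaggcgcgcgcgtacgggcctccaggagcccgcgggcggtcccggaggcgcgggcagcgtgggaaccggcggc
The Nr4a1 window held 4 matches to TGACGCA, all on the minus strand, that began 235, 215, 71 and 42 bases before the start (-235, -215, -71 and -42). It was the only 1 of 32851 promoter windows of mouse genes with 4 or more, and 2.12% of the windows held any. The Cebpb window held 1 such match, 7 bases before the start (-7). The Irf8 window shown held 2 matches to the GAS element, at -171 and -153, where 8.30% of windows held at least 1 and 0.457% held 2 or more. Another Irf8 window, not shown, held 0. No window held both motifs, and 2 of the 4 Zeb2 windows held 1 match each to the GAS element. A window was found for 8 of the 10 genes (13 windows), and not for Spi1 and Cebpe. No window of the 8 genes held the full element TGACGTCA, which 1.79% of all windows held. A match says that the letters are there, not that a factor binds.

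**Figure D1:**
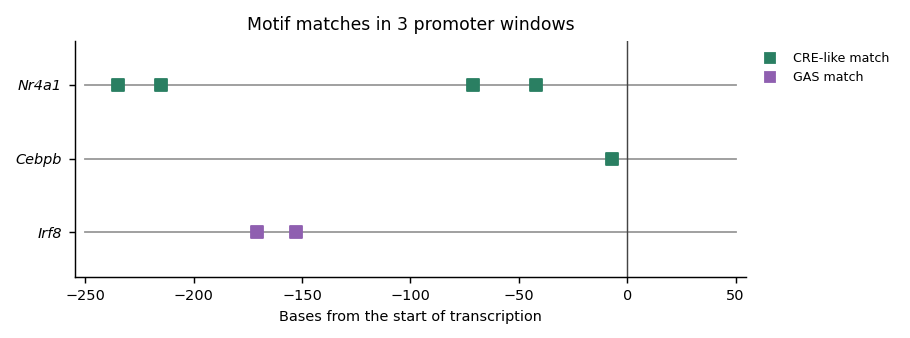
Position of motif matches in the promoter windows of Nr4a1, Cebpb and Irf8, in bases from the start of transcription on the x axis. Each square is the first base of 1 match. Nr4a1 had 4 CRE-like matches in 2 pairs, Cebpb 1, and Irf8 2 GAS matches.

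The libraries held 8423 to 10866 barcodes and 61292684 to 85145074 UMIs, and 6794, 7476, 9627 and 7560 cells passed the filter of 500 to 4000 genes and at most 15% mitochondrial UMIs. Cells of DKO were deeper (median of 7053 UMIs, against 4585.5 to 4795 in the other libraries), and libraries shared 19 to 36 barcode sequences per pair. Diaph1 had 163, 178, 11.4 and 12.4 CPM, whereas Il6 had 9.89 and 8.60 CPM in the libraries labelled IL-6 KO and TKO against 0.807 in TWT and 0.235 in DKO. A 3′ tag can come from an allele that makes no protein, so the Il6 counts do not check the label, and IL-6 KO and TKO stand for the libraries so labelled. Cells were assigned to 16 classes by marker genes among which no member was, so that the members could be read out freely. GMP-like cells (granulocyte-monocyte progenitors, 119, 162, 174 and 170 cells) were led by all 6 of their markers. A stem cell marker class (71, 65, 19 and 54 cells) was led in part by megakaryocyte genes such as Pf4 and Clec1b, and had none of its markers among the 10 leading genes in IL-6 KO, so it is given no cell type name. Monocyte-like cells made up 8.02% of TWT, 7.09% of IL-6 KO, 23.4% of DKO and 8.15% of TKO cells, and non-classical monocyte-like cells 0.442%, 0.575%, 11.2% and 1.11%. Mature neutrophil-like cells made up 26.1%, 28.5%, 7.28% and 24.6%. Macrophage-like cells, defined by C1q genes, were 20, 14, 377 and 12, and the cells of this class had medians of 1256, 1194, 6394 and 1269.5 UMIs.

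Although no member was a marker, 3 of them stood among the 10 genes with the highest fold in a class over the other cells: Cebpe in immature neutrophil-like, Nr4a1 in non-classical monocyte-like and Irf8 in plasmacytoid dendritic-like cells. In TWT, Cebpe was granulocytic. It had 472 CPM in GMP-like, 550 in immature and 47.1 in mature neutrophil-like cells, and 12.0 in monocyte-like cells. Gfi1, a repressor that holds down monocytic genes, was highest in GMP-like cells (99.2 CPM), lower in immature neutrophil-like cells (24.3) and at 0.437 CPM (2 UMIs) in monocyte-like cells. Outside the granulocytic branch it had 22.3 CPM in NK-like (7 UMIs), 17.4 in T-like and 16.2 in basophil- and mast-like cells (6 UMIs), close to the immature neutrophil level. Klf4 was monocytic in TWT, and had 282 CPM in monocyte-like and 465 (345 to 613) in non-classical cells against 0.653 in immature neutrophil-like cells. Nr4a1 was highest in non-classical cells (158 CPM) and had 17.5 CPM in monocyte-like and 10.5 in mature neutrophil-like cells, so that monocyte and macrophage classes gave 40.2% of its UMIs and neutrophil classes 39.0%. Pou2f2 was highest in non-classical cells (1190 CPM, 992 to 1414), followed by B-like cells (586), with 198 CPM in monocyte-like cells. Zeb2 had 793 CPM in monocyte-like and 1022 (840 to 1232) in non-classical cells, and 5.94 in immature and 86.6 in mature neutrophil-like cells. Spi1 had 93.0 CPM in the stem cell marker class, 273 (10 UMIs) in macrophage-like, 349 in GMP-like and 694 in mature neutrophil-like cells, with 688 (540 to 863) in non-classical cells, and the last 2 values do not differ beyond their intervals. Cebpa, the member that opens granulopoiesis, was highest in basophil- and mast-like cells (647 CPM), then in stromal and endothelial cells (177, from 6 UMIs), monocyte-like (97.7) and GMP-like cells (67.1).

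**Figure D2:**
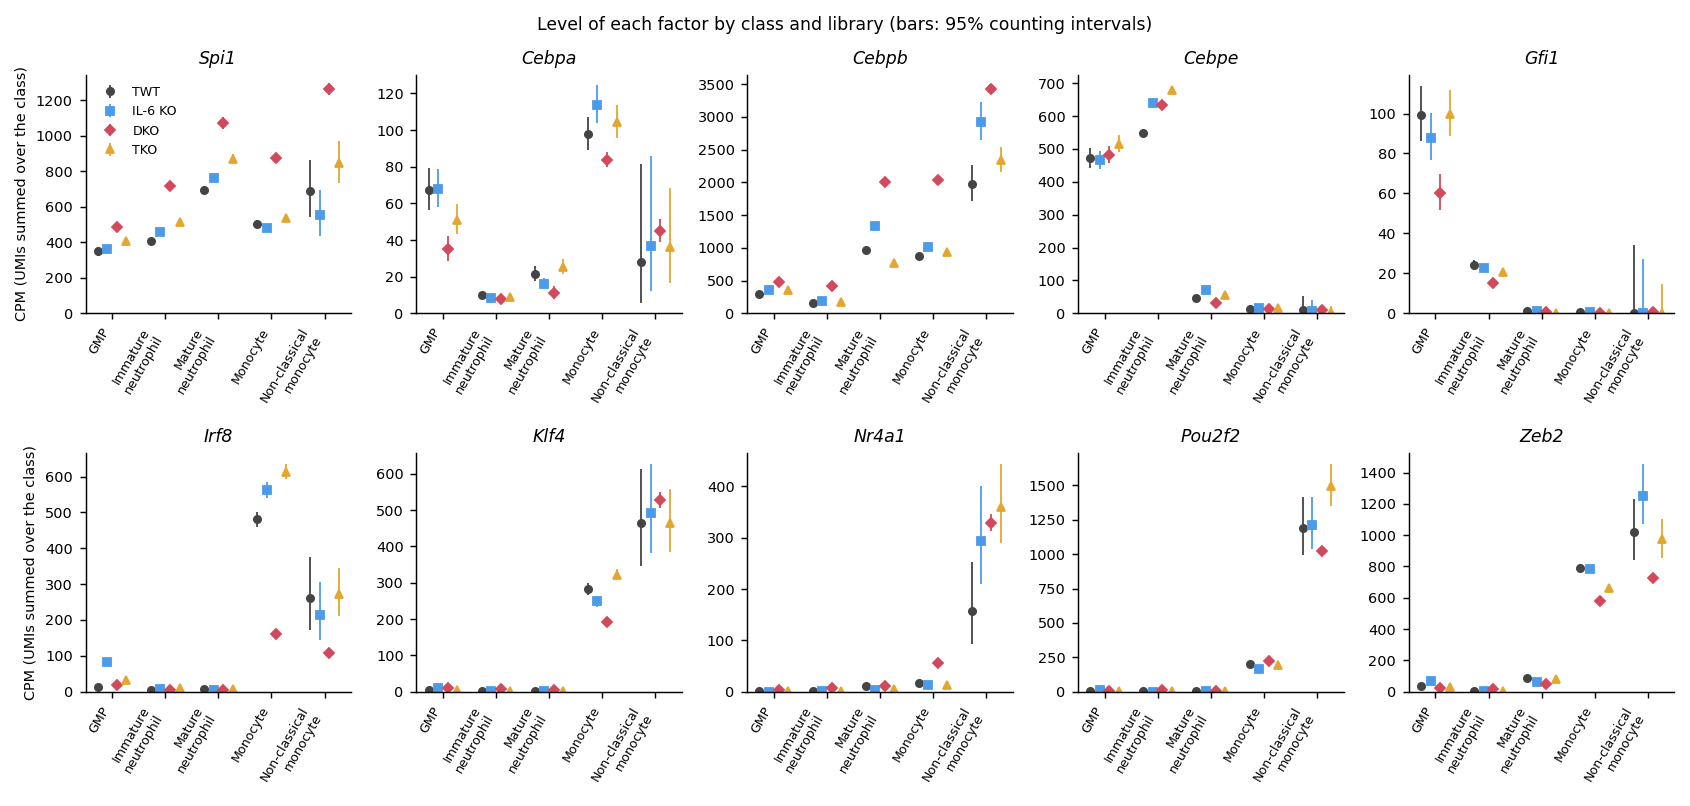
Level of each member (y axis, CPM on a linear axis from 0) in GMP-like, immature and mature neutrophil-like, monocyte-like and non-classical cells of the 4 libraries (x axis), with exact 95% counting intervals as bars. Cebpe and Gfi1 are high in the progenitor and immature neutrophil classes and Klf4, Pou2f2 and Zeb2 in the monocyte classes. Nr4a1 is high in non-classical cells. In monocyte-like cells DKO lies lowest for Irf8 (162 CPM against 480 to 613) and highest for Cebpb (2038 against 881 to 1011).

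Irf8, the factor that commits progenitors to monocytes and dendritic cells (ENSMUSG00000041515, GRCm38 chromosome 8, 120736358 to 120756694, plus strand), was lower in DKO in every class of the monocyte lineage. In monocyte-like cells it had 480 CPM (461 to 501), 562 (540 to 585), 162 (156 to 167) and 613 CPM (592 to 635). DKO lay below the other 3 libraries, which lay between 480 and 613. TWT was 2.97-fold (2.81 to 3.14) and TKO 3.79-fold (3.61 to 3.98) higher than DKO. In non-classical cells the levels were 260 (28 UMIs), 213 (29 UMIs), 107 (469 UMIs) and 272 CPM (68 UMIs), and TWT was 2.44-fold (1.60 to 3.57) higher than DKO. In macrophage-like cells they were 518, 304, 86.1 and 548 CPM, but those of TWT, IL-6 KO and TKO rest on 19, 8 and 12 UMIs. DKO was thus the lowest of the 4 libraries in all 3 classes. After each cell was thinned to 2000 UMIs, Irf8 was found in 53.5% (49.1 to 57.7) of monocyte-like cells in TWT, 56.3% in IL-6 KO, 26.7% (24.8 to 28.6) in DKO and 57.3% in TKO, and unthinned in 90.5%, 86.0%, 63.8% and 90.9%. T-like cells, which should largely lack Irf8, had it in 4.24% to 6.54% of thinned cells (median depths 3605.5 to 3799 UMIs, against 7000 to 8903 in monocyte-like cells), so the monocyte values stood above that background in every library.

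The lower Irf8 level was not seen in B-like cells, in which Irf8 had 413 CPM (391 to 436), 337, 418 (384 to 454) and 375 CPM. In dendritic classes it was lower in DKO, with 1354, 941, 677 and 1140 CPM in conventional dendritic-like cells and 4418, 4396, 2838 and 4868 CPM in plasmacytoid dendritic-like cells, of which DKO held 7. In GMP-like cells Irf8 was low in all libraries, at 14.1 CPM, 82.0, 17.2 and 33.4 CPM. IL-6 KO stood highest there, 5.82-fold (3.93 to 8.90) above TWT, and its Zeb2 (66.9 CPM) was also above that of TWT (33.1). At full depth Irf8 was found in 25 of 162 GMP-like cells of IL-6 KO and 9 of 119 of TWT, so few cells carried these UMIs. Klf4 had 3.41, 10.8, 11.3 and 5.4 CPM there, and IL-6 KO and DKO lay close together. In the stem cell marker class Irf8 had 132 CPM in TWT, 426 in IL-6 KO and 203 in TKO, and 6.35 CPM, from 1 UMI in 19 cells, in DKO. TWT was 20.8-fold higher there than DKO, with an interval of 3.63 to 832 that counts UMIs and not cells. The 81 UMIs of TWT came from 11 of 71 cells. After thinning, Irf8 was found in 10.9% (4.51 to 21.2) of these cells in TWT and 0% (0 to 21.8) in DKO, and these intervals overlap. Monocyte-like cells with UMIs of at least 2 of 5 cell cycle genes were 18.9% in TWT and 3.27% in DKO. Irf8 was lower in DKO both in these dividing cells (645 CPM in TWT, 238 in DKO) and in the others (420 and 158).

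Cebpb, a C/EBP factor induced by inflammatory cytokines (ENSMUSG00000056501, chromosome 2, 167688915 to 167690418, plus strand), was higher in DKO in neutrophil and monocyte classes alike. In immature neutrophil-like cells it had 156 CPM (150 to 162), 195, 413 (406 to 420) and 170 CPM. In mature neutrophil-like cells it had 971, 1335, 2013 and 768 CPM, and in monocyte-like cells 881, 1011, 2038 and 941 CPM. DKO was the highest library in all 3 classes, and IL-6 KO came next. DKO was 2.65-fold (2.55 to 2.76), 2.07-fold (2.0 to 2.15) and 2.31-fold (2.24 to 2.39) above TWT in these 3 classes. In GMP-like cells the difference was smaller, with 296, 353, 477 and 354 CPM, a ratio of 1.61 (1.47 to 1.78). In non-classical cells Cebpb had 1979, 2929, 3425 and 2340 CPM, a ratio of 1.73 (1.51 to 1.99). Cebpb was found in 78.1%, 83.3%, 94.5% and 79.9% of thinned monocyte-like cells. The shares of immature neutrophil-like cells were 23.9%, 28.2%, 48.9% and 21.5%. The background share in T-like cells was 11.2%, 10.9%, 17.0% and 9.56%, and in B-like cells 3.55%, 4.67%, 18.6% and 1.62%. B-like cells thus held more Cebpb in DKO as well (117 CPM against 22.6 in TWT), and free RNA was estimated from S100a8 and S100a9 in T-like cells at 2.09% of UMIs in DKO and 0.862% to 1.23% in the other libraries. The part of free RNA in these low values was not tested.

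Nr4a1 (ENSMUSG00000023034, chromosome 15, 101254269 to 101274795, plus strand) was higher in DKO in monocyte-like cells, at 17.5 CPM (13.9 to 21.8), 12.8, 55.7 (52.4 to 59.0) and 13.8 CPM. DKO was 3.18-fold (2.54 to 4.05) above TWT and 4.03-fold (3.18 to 5.18) above TKO. It was found in 3.18%, 2.85%, 10.7% and 3.30% of thinned monocyte-like cells, and in at most 0.769% of T-like cells. In non-classical cells Nr4a1 had 158 CPM (92.0 to 253, 17 UMIs), 294, 329 and 361 CPM. There TWT was the low library, and DKO and TKO did not differ beyond counting error (ratio 0.913, 0.737 to 1.14). Nr4a1 is an immediate early gene that also responds to the handling of cells. The summed level of 14 other immediate early and dissociation genes was 996, 916, 1956 and 1057 CPM in monocyte-like cells, with DKO the highest, and 5349, 4926, 4331 and 4149 CPM in mature neutrophil-like cells, with TWT the highest. It was 242, 230, 440 and 230 CPM in GMP-like, 588, 603, 1063 and 593 in immature neutrophil-like and 1673, 1597, 2504 and 2015 in non-classical cells, with DKO the highest in each. The part of this in the level of Nr4a1 was not tested. Of these genes Jun, Junb, Dusp1 and Ier3 were at least 2-fold higher in monocyte-like cells of DKO than in TWT, and Fos, Ier2, Zfp36 and Btg2 were measured and were not.

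Spi1, the ETS factor PU.1 (ENSMUSG00000002111, chromosome 2, 91082390 to 91115756, plus strand), was higher in DKO than in the other libraries in each main myeloid class, but by less than 2-fold. It had 349, 359, 488 and 406 CPM in GMP-like cells and 409, 457, 716 and 515 CPM in immature neutrophil-like cells. In mature neutrophil-like cells it had 694, 764, 1070 and 870 CPM, and in monocyte-like cells 504, 479, 873 and 539 CPM. DKO stood above TWT by 1.40-fold (1.28 to 1.53), 1.75-fold (1.70 to 1.80), 1.54-fold (1.47 to 1.61) and 1.73-fold (1.66 to 1.81) in these 4 classes. TKO lay between TWT and DKO in all 4. Spi1 was found in 63.0% of thinned monocyte-like cells in TWT and 81.0% in DKO, and in 3.08% and 4.36% of T-like cells. Non-classical cells had 688, 552, 1261 and 845 CPM, with DKO 1.83-fold (1.46 to 2.34) above TWT.

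Cebpa, which drives the step from multipotent to granulocyte-monocyte progenitors (ENSMUSG00000034957, chromosome 7, 35119293 to 35121928, plus strand), went the other way in GMP-like cells. Its levels were 67.1 CPM (56.4 to 79.3), 67.7, 35.1 (28.8 to 42.5) and 50.9 CPM, and TWT was 1.91-fold (1.47 to 2.49) higher than DKO, short of 2-fold. In monocyte-like cells the levels were 97.7, 114, 83.8 and 104 CPM, with DKO at 0.858 (0.772 to 0.954) of TWT. Gfi1 (ENSMUSG00000029275, chromosome 5, 107716657 to 107726036, minus strand) had 99.2, 87.8, 60.3 and 99.86 CPM in GMP-like cells, where TWT was 1.65-fold (1.34 to 2.02) higher than DKO. Among immature neutrophil-like cells it had 24.3, 22.5, 15.2 and 20.5 CPM, a ratio of TWT to DKO of 1.60 (1.40 to 1.83). DKO was the lowest library for Cebpa and Gfi1 in GMP-like cells, and the intervals of the other 3 overlapped for Gfi1. Cebpe (ENSMUSG00000052435, chromosome 14, 54710360 to 54712174, minus strand) differed little. It had 472, 466, 482 and 516 CPM in GMP-like cells (ratio of DKO to TWT 1.02, 0.942 to 1.11) and 550, 641, 633 and 681 CPM in immature neutrophil-like cells (1.15, 1.12 to 1.18). TWT was the low library for Cebpe there, and the other 3 lay close together. Mature neutrophil-like cells kept little of either gene, with 47.1, 70.1, 30.8 and 56.1 CPM of Cebpe and 8, 7, 3 and 2 UMIs of Gfi1. Cebpa in these cells was lowest in DKO, at 21.4, 16.04, 10.9 and 25.5 CPM. Among immature neutrophil-like cells, Cebpe had 744 CPM in TWT and 944 in DKO in dividing cells and 454 and 539 in the others, and Gfi1 40.3 and 28.2 in dividing cells and 16.4 and 11.2 in the others, so the direction of each difference was the same in both.

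Klf4, a Krüppel-like factor of monocytes (ENSMUSG00000003032, chromosome 4, 55527143 to 55532466, minus strand), had 282 CPM (267 to 298), 249, 192 (186 to 198) and 321 CPM in monocyte-like cells, so that TWT was 1.47-fold (1.38 to 1.57) higher than DKO. Klf4 was found in 35.5% (31.5 to 39.7) of thinned monocyte-like cells in TWT and 31.0% (29.0 to 32.9) in DKO, and these intervals overlap. In non-classical cells it had 465, 493, 528 and 465 CPM, with overlapping intervals. Zeb2, a zinc finger repressor of the monocyte and dendritic lineages (ENSMUSG00000026872, chromosome 2, 44983632 to 45117395, minus strand), had 793, 785, 580 and 661 CPM in monocyte-like cells, where TWT was 1.37-fold (1.32 to 1.42) higher than DKO. Mature neutrophil-like cells had 86.6, 60.4, 47.4 and 78.4 CPM of Zeb2, and TWT was 1.83-fold (1.52 to 2.20) higher there. Its level in GMP-like cells was 33.1, 66.9, 24.2 and 27.7 CPM, and in the stem cell marker class 276, 480, 152 and 225 CPM. Pou2f2 (ENSMUSG00000008496, chromosome 7, 25087344 to 25179726, minus strand) was close between libraries in monocyte-like cells, at 198, 162, 222 and 193 CPM (ratio of DKO to TWT 1.12, 1.05 to 1.21). In non-classical cells it had 1190, 1214, 1024 and 1494 CPM (ratio 0.861, 0.722 to 1.03). Neither gene was 2-fold apart between DKO and TWT in monocyte-like or non-classical cells. Among the immature neutrophil-like cells 4 monocytic members were above TWT in DKO at low levels. Klf4 had 0.653, 0.532, 7.46 and 0.812 CPM, Nr4a1 1.91, 1.64, 7.57 and 1.80, Pou2f2 1.58, 0.870, 12.7 and 1.31, and Zeb2 5.94, 6.04, 17.9 and 5.55. T-like cells of DKO had 6.58, 5.76, 37.3 and 34.0 CPM of these 4 genes. The values in immature neutrophil-like cells of DKO lay just above these for Klf4 and Nr4a1, and below them for Pou2f2 and Zeb2. Whether the values in immature neutrophil-like cells reflect expression, and the part of free RNA and of doublets in them, was not tested.

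**Figure D3:**
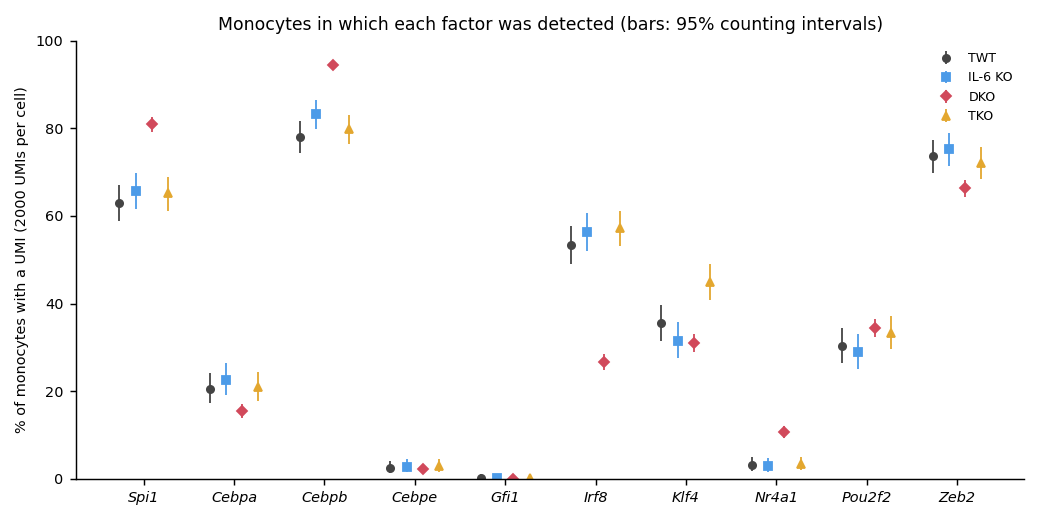
Share of monocyte-like cells with at least 1 UMI of each member after thinning to 2000 UMIs per cell (y axis, percent), by library, with exact 95% intervals. DKO lies below the other libraries for Irf8 (26.7% against 53.5% to 57.3%) and above them for Spi1, Cebpb and Nr4a1.

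**Figure D4:**
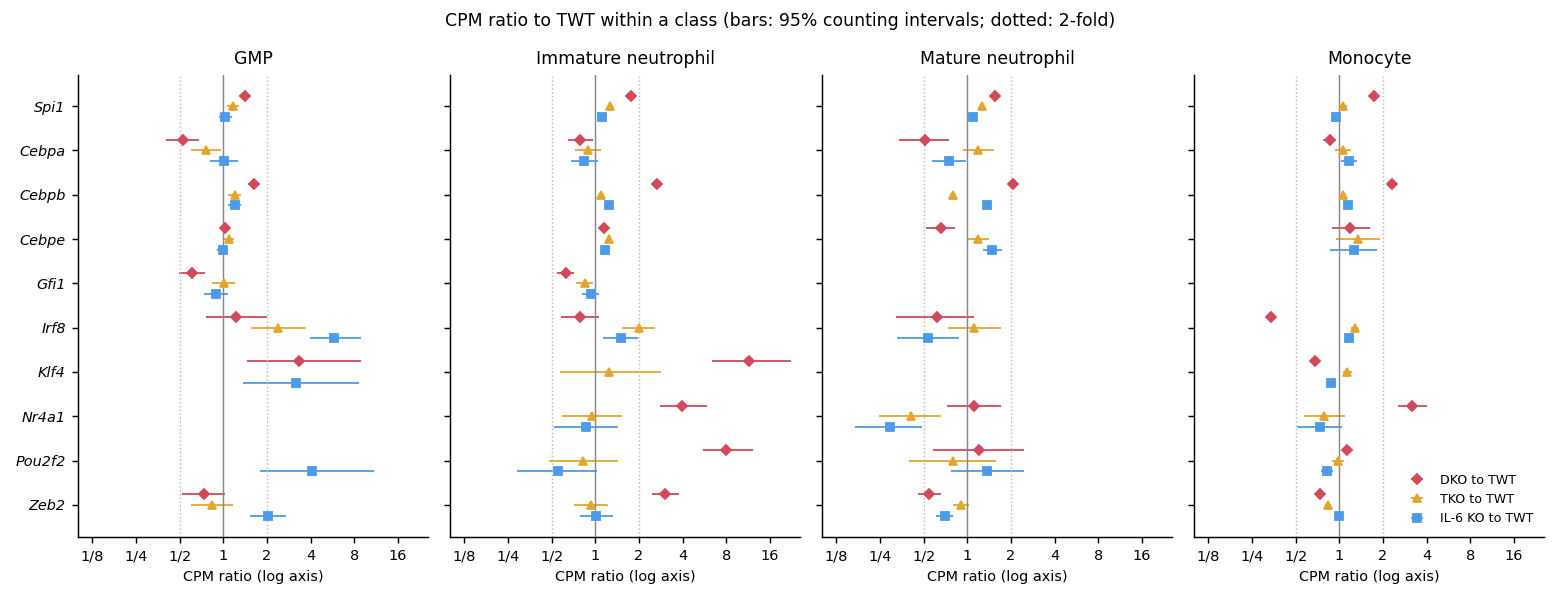
Ratio of DKO, TKO and IL-6 KO to TWT (x axis, CPM ratio on a log axis) of each member in 4 classes, with exact 95% counting intervals as bars and dotted lines at 2-fold, for pairs of libraries with at least 30 UMIs together and some in each. In monocyte-like cells DKO lies past 2-fold for Irf8 (lower), Cebpb and Nr4a1 (higher), whereas TKO and IL-6 KO lie within 2-fold for every member drawn.

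A gene counted as measured if 1 of the libraries compared reached 50 CPM and both summed to 30 UMIs or more, and as called if the levels were also 2-fold or more apart, which is a rule of size and not a test. In monocyte-like cells 8 of the 10 members were measured by this rule, 2 were called higher (Cebpb and Nr4a1) and 1 lower (Irf8), where 4.25% of 3199 measured genes were higher and 9.5% lower. In non-classical cells Nr4a1 was called higher and Irf8 lower of 7 measured (11.3% and 8.47% of all measured genes), with 30 cells in TWT. Under a stricter gate Nr4a1 was called in neither of these 2 classes. In monocyte-like cells its ratio was at least 2.57 under every setting tried and the 50 CPM minimum was then missed, and in non-classical cells the ratio fell to 1.83. In immature neutrophil-like cells Cebpb was called higher of 3 measured (3.05% of all measured genes higher, 3.73% lower), and in mature neutrophil-like cells Cebpb of 3 (5.31% and 7.14%). Cebpb in mature neutrophil-like cells lay just past 2-fold, and fell short of it under 2 of 8 alternative settings (ratios of 1.90 to 2.21). When both neutrophil classes were summed, 0 of 3 measured members were called. Cebpb there had 346 CPM in TWT and 576 in DKO, and mature cells, which carry more Cebpb, were fewer in DKO. In GMP-like cells 0 of 5 measured members were called (2.21% higher and 8.55% lower of all measured genes). Over both progenitor gates together Zeb2 was called lower of 6 measured (2.04% higher, 13.1% lower), at 88.8 CPM in TWT and 30.5 in DKO, a gate in which the stem cell marker class gave 71 of 190 cells in TWT and 19 of 193 in DKO. In macrophage-like cells 6 were called higher (Spi1, Cebpa, Cebpb, Klf4, Nr4a1 and Pou2f2) and Irf8 lower of 8 measured, where 20.7% of measured genes were higher and 25.6% lower. Klf4, Nr4a1 and Cebpa were measured there through DKO alone. TWT had 0 UMIs of Klf4 and Nr4a1 and 1 UMI of Cebpa in its 20 macrophage-like cells. For 0 UMIs a bound of 3 counts allows up to 81.8 CPM, and the exact interval up to 101 CPM (152 for Cebpa). DKO had 166 CPM of Klf4, 99.97 of Nr4a1 and 139 of Cebpa. These 3 calls thus carry no known size, and at the exact bounds none of the 3 need differ by 2-fold. The make-up of the class also differed, with a median level of monocyte markers of 0, 0, 30.6 and 10.4 UMIs per 10000 and of macrophage markers of 265, 268, 120 and 132, and the part of this in the levels of the members was not tested. Pou2f2 there had 246, 152, 827 and 502 CPM, from 9, 4, 2026 and 11 UMIs, and Spi1 273, 266, 844 and 457 CPM, from 10, 7, 2068 and 10 UMIs. The median log2 ratio of measured members was -0.03 in monocyte-like cells, where that of all measured genes was -0.17, and 0.80 among immature neutrophils, where that of all measured genes was 0.01.

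The comparison of DKO with TKO called the same 3 members in monocyte-like cells, Cebpb (2.17-fold, 2.10 to 2.23) and Nr4a1 higher and Irf8 lower, where 4.75% of all measured genes were higher and 9.4% lower. It shares the DKO library with the comparison with TWT, so the 2 are not independent. TKO against TWT called 0 of the members in monocyte-like cells (0.128% of all measured genes higher, 0.288% lower), and IL-6 KO against TWT also 0 (0.191% and 0.414%). The ratios of TKO to TWT in these cells were 1.28 (1.21 to 1.35) for Irf8 and 0.834 (0.796 to 0.874) for Zeb2. In GMP-like cells IL-6 KO against TWT called Irf8 (5.82-fold) and Zeb2 (2.02-fold, 1.52 to 2.72) higher, where 0.323% of all measured genes were higher and 0.323% lower. In non-classical cells TKO against TWT called Nr4a1 higher of 7 measured (361 and 158 CPM, the latter from 17 UMIs). There 4.44% of all measured genes were higher and 1.14% lower. The call of Nr4a1 in DKO against TWT in non-classical cells thus had a counterpart in TKO. Calls between libraries other than DKO therefore occurred among the members in the small progenitor class and in non-classical cells.

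Over all cells passing the filter, the UMIs of several members came from different classes in DKO and TWT. The UMIs of Pou2f2 came to 52.6% from B- and plasma-like cells in TWT and to 3.80% in DKO, where monocyte- and macrophage-like classes gave 78.8% (27.6% in TWT). The UMIs of Irf8 came to 48.2% from dendritic classes and 26.9% from monocyte and macrophage classes in TWT, and to 8.53% and 66.1% in DKO. Cebpe stayed neutrophilic, with 88.4% and 83.5% of its UMIs from neutrophil classes. Over all cells 7 members were measured. Spi1 (373 CPM in TWT, 755 in DKO), Cebpb (341 and 1180), Klf4 (37.1 and 105) and Pou2f2 (87.5 and 181) were called higher, and Irf8 (193 and 76.6) lower, where 6.57% of 2677 measured genes were higher and 5.42% lower. Spi1 and Pou2f2 lay close to 2-fold (2.02 and 2.07) and were each called under 4 of 8 alternative settings, with ratios of 1.70 to 2.39 and 0.923 to 2.51. Nr4a1, at 5.58 CPM in TWT and 47.1 in DKO, was 8.45-fold (7.41 to 9.66) higher but just under the 50 CPM minimum. When each class of DKO was weighted as in TWT, 6 members were still measured, and Cebpb, which went from 3.46 to 2.30, was the only one of them past 2-fold. Klf4 went from 2.83 to 1.03, Pou2f2 from 2.07 to 0.923, Zeb2 from 1.71 to 0.762 and Nr4a1 from 8.45 to 2.92. Irf8 went from 2.52-fold to 1.65-fold lower, and Spi1 from 2.02 to 1.70. This weighting was added after the data had been seen. The count of cells of a class and the RNA per cell cannot be told apart in the sums over all cells, whereas the values by class hold the class fixed.

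**Figure D5:**
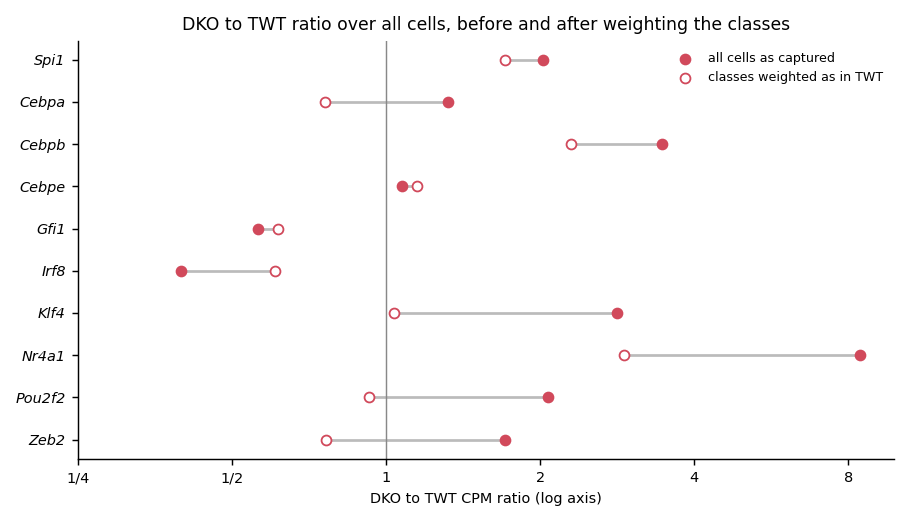
Ratio of DKO to TWT over all cells (x axis, CPM ratio on a log axis) for each member, for the cells as captured (filled) and with each class weighted as in TWT (open). Klf4 (1.03) and Pou2f2 (0.923) move close to 1 and Zeb2 (0.762) below it, Cebpb moves from 3.46 to 2.30 and Irf8 stays below 1.

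The monocyte-like class itself differed between libraries. The median level of its 8 markers per cell was 88.0 UMIs per 10000, 87.2, 55.3 and 87.1, and that of the 12 macrophage markers was 1.57, 1.51, 3.57 and 1.54. The median levels of B, T, NK, plasma and erythroid markers were 0 in all 4 libraries. Their part in the levels of the members was not tested. Cells within 0.05 of the next class were 0.917% of monocyte-like cells in TWT and 5.11% in DKO, and 5.98% and 17.8% of mature neutrophil-like cells. Mature neutrophil-like cells had a median level of immature neutrophil markers of 78.4, 76.5, 194 and 79.2 UMIs per 10000. The part of this in the levels of Zeb2, Cebpa and other genes in that class was not tested.

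Among 96 other transcription factor genes related to the members or to blood progenitors, 41 were measured in monocyte-like cells, 6 were called higher in DKO than in TWT and 6 lower. The highest were Jun, an AP-1 subunit (47.2, 43.0, 246 and 89.6 CPM in TWT, IL-6 KO, DKO and TKO), and Jund (97.1, 73.6, 402 and 128 CPM). Among the lower was Id1, an inhibitor of E proteins (61.4, 90.4, 23.4 and 62.9 CPM). The interferon factors Irf7 and Irf9 were also called lower, at 56.4 and 57.7 CPM in TWT and 24.9 and 23.1 in DKO, and are given because they are relatives of Irf8. In immature neutrophil-like cells 4 of 22 were called higher and 1 lower, with Jun (7.46 and 119 CPM in TWT and DKO) and Klf2 (142 and 576) highest. In mature neutrophil-like cells 3 of 32 were called higher and 3 lower, with Jun (34.5 and 258 CPM) and Klf2 (541 and 1953) highest and Runx2 (57.0 and 23.9) among the lower. In GMP-like cells 2 of 16 were called higher, Klf2 (12.6 and 67.6 CPM) and Jund (41.3 and 92.1), and 3 lower, with Fli1 (93.4 and 36.4) and Ets1 (73.0 and 30.1) lowest. In non-classical cells 10 of 50 were called higher and 3 lower, but Id3 and Nfil3, the highest, had 0 UMIs in the 30 TWT cells. Tcf4 (204 and 48.4 CPM) and Stat5b (177 and 71.4), from 22 and 19 UMIs in TWT, were the lowest. Over all cells 4 of 36 were called higher, among them Jun (36.3 and 177 CPM), and 4 lower, led by Myb (58.9 and 12.5) and Tcf4 (109 and 25.5).

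Genes known as targets of the factors differed among themselves. Of the targets of Irf8 in monocyte-like cells, Ly86 (395, 401, 128 and 317 CPM) and Mpeg1 (822, 807, 381 and 748 CPM) were called lower in DKO than in TWT. Cst3 (2415, 2447, 2414 and 2573 CPM) and Ctss (984, 877, 1572 and 1126 CPM) were not called. Of the targets of Spi1, Cd14, the lipopolysaccharide co-receptor, had 15.5, 22.5, 325 and 35.6 CPM and was called higher, and Csf1r (236, 243, 393 and 237 CPM), a marker used in the gate, was not. Of the targets of Cebpa in GMP-like cells, Mpo (6979, 6703, 3271 and 5438 CPM), another gate marker, and Csf3r, the receptor of G-CSF (86.1, 87.8, 26.8 and 66.5 CPM), were called lower. Elane, also a gate marker, was not. Csf3r was also lower in mature neutrophil-like cells (1246, 1280, 463 and 1348 CPM). Of the targets of Cebpe in GMP-like cells, Lcn2 (534, 428, 1668 and 607 CPM) and Ngp (2594, 2768, 5566 and 2582 CPM) were called higher, and Camp and Ltf were not. In immature neutrophil-like cells all 4 were within 2-fold of TWT, but all 4 are markers of that gate, which selects cells high in them. Their levels there therefore cannot show whether targets of Cebpe differed. In GMP-like cells the markers of the immature neutrophil gate, Lcn2 and Ngp included, had medians of 63.2, 45.1, 86.0 and 45.8 UMIs per 10000. The part of class make-up in the calls of Lcn2 and Ngp was not tested.

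Irf8 and Gfi1 act on opposite sides of the monocyte and neutrophil fork, and few progenitor cells held UMIs of both. Of 807 thinned progenitor cells of the 4 libraries, 3 had UMIs of both, 53 of Irf8 alone and 114 of Gfi1 alone. Of all 834 progenitor cells at full depth, 23 had both, so at the lower depth most pairs went unseen. These were 8 of 227 in IL-6 KO, 7 of 224 in TKO, 5 of 190 in TWT and 3 of 193 in DKO. The intervals of these shares overlapped in all 4 libraries (DKO 1.55%, 0.322 to 4.48, and IL-6 KO 3.52%, 1.53 to 6.83). The product of the shares of the 2 genes, expected if they were independent, was 0.597%, 2.18%, 0.376% and 0.917% of thinned cells. In thinned cells it lay inside the interval of the observed share in every library. At full depth the product was 5.04%, 10.6%, 3.57% and 6.68%, against 2.63%, 3.52%, 1.55% and 3.13% observed. There it lay above the interval in IL-6 KO (1.53 to 6.83) and TKO (1.27 to 6.33), and inside it in TWT and DKO. The stem cell marker class and GMP-like cells are pooled here, and exclusion was not tested.

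Across 53 profiles of a class in a library, the genes most like each member in log2(CPM + 1) were found among 7567 genes. They are given as a description, since the profiles share libraries and classes. Cebpe was most like Camp (Pearson r = 0.926), a secondary granule gene and a marker of the immature neutrophil gate, and Prom1 (0.910). Atp6v0b (0.897), a subunit of the vacuolar proton pump, and Adssl1 (0.893) were among the genes most like Spi1. Irf8 was most like Vav2 (0.914) and H2-DMa (0.90), of the antigen presentation machinery. Klf4 was most like Ptpro (0.90) and Cx3cr1 (0.888), and Nr4a1 most like Dpep2 (0.884), Tppp3 (0.865) and Cd300e (0.858), of which Cx3cr1 and Cd300e are markers of the non-classical gate. Cebpb was most like Msrb1 (0.872) and Lst1 (0.864), Pou2f2 most like Filip1l (0.893), Zeb2 most like Slc15a4 (0.879), Cebpa most like Ccl9 (0.857) and Gfi1 most like Nkg7 (0.780). Among the members themselves the highest correlations were those of Klf4 with Nr4a1 (0.769), Spi1 with Cebpa (0.743) and Irf8 with Zeb2 (0.739).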

How the data were processed

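The authors aligned the reads to mm10 with Cell Ranger (version 3.0.2 in the headers of the matrices) and analysed them in Seurat 4. The deposited tables give raw UMI counts of genes in cells, as whole numbers and without normalization. The kit was Chromium 3′ version 3. The filter kept cells of 500 to 4000 detected genes whose mitochondrial UMIs made up no more than 15%. Each cell was scored for 16 classes from its own marker UMIs per 10000. Their 90th percentile in B and T cells of the library was first taken off, except for lymphoid and conventional dendritic markers. The log of 1 plus the rest was scaled to the 99.9th percentile and averaged over the 4 highest markers. The best class needed a score of 0.3. Neutrophil, monocyte, macrophage, GMP and lymphoid cells with markers of certain other of these lineages (0.25, or 0.45 for neutrophil markers in monocyte and macrophage cells) were left out as mixed (5.28% to 7.48% of cells). The markers hold no member. The scoring rule was chosen after the data had been seen, and the members, lists and tests were chosen with earlier results of these data known.

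UMIs were summed per class and library as CPM with exact Poisson intervals, and ratios of libraries have exact conditional binomial intervals, at 95%. Genes were measured from 50 CPM in 1 of the libraries and 30 UMIs over the pair, and called from a difference of 2-fold. Log2 values have a pseudocount of 1 CPM. Shares of positive cells were taken after thinning to 2000 UMIs, with exact Clopper-Pearson intervals, and 0 UMIs were bounded by 3 counts. Named genes are the 10 members, per class the 2 highest and 2 lowest called among 96 other factors, the listed targets and immediate early genes, and 3 like genes per member. Irf7 and Irf9 were added after their values were seen. The rule was tested on simulated data. No cell was removed as a doublet. Scrublet's automatic threshold marked 1 of 10866 DKO barcodes, so its call was not used there. Gene positions are those of the annotation of GRCm38, the build mm10. Python 3.11.15, numpy 2.4.6, scipy 1.17.1, pandas 2.3.3, scanpy 1.11.5 and matplotlib 3.10.9 were used. The total depth was 61292684 to 85145074 UMIs per library. A few results on genes other than the members are not reported here.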

Additional observations from a re-analysis of the deposited data

How the results depend on the processing

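No paired analysis was possible because each genotype had 1 library and the result comes from no test. For the same reason no replicate could be left out. The members called in DKO against TWT over the monocyte classes were the same 3 under all but 1 alternative (4 with the mean of each cell's CPM). This gate pools monocyte-like and non-classical cells, and the latter were 30 of 575 cells in TWT and 1080 of 3329 in DKO. The DKO to TWT ratio of Nr4a1 was 5.09 in this gate, 3.18 in monocyte-like and 2.08 in non-classical cells. In each single class Nr4a1 was called in 7 of 8 settings. Over all cells, 5 members became 3 under the stricter gate, which lost Spi1 and Pou2f2, 4 without genes above 1% of UMIs or with the mean of each cell's CPM (both without Spi1 and Pou2f2 and with Nr4a1), and 1 at the class mix of TWT, where Pou2f2 turned to a ratio of 0.923. Over the progenitor gates, 1 became 2 with a 200-gene minimum as the only filter and also under the stricter gate, 3 with the mean of each cell's CPM, and 4 with a 10 CPM minimum. Over the neutrophil classes, 0 became 1 with a 10 CPM minimum (Pou2f2). The other factors called over all cells rose from 8 to 25 with a 10 CPM minimum and to 13 without genes above 1% of UMIs. Members called in at least 1 of 6 classes (macrophage-like left out) rose from 3 to 5 with the 200-gene minimum, and cells with both Irf8 and Gfi1 from 3 to 23 without thinning. The cause was not tested.

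Nr4a1 in monocyte-like cells ranged from 2.57 to 4.18 over 8 settings and was called in 7. Irf8 was called there in all 8 (TWT 2.67 to 3.54-fold higher), and Cebpb in all 8 (2.21 to 2.45). Of 170 single-gene ratios under alternatives, 154 were still called and 16 were not. Leaving out genes above 1% of UMIs moved the median log2 ratio of all genes by -0.228 over all cells and by -0.219 in immature neutrophil-like cells, and the share of calls that were higher from 54.8% to 31.7% and from 45.0% to 20.2%. In monocyte-like cells the shift was -0.01. The removal of doublets by Scrublet's own threshold was not run. The 5% of cells with the highest scores were removed in its place, chosen after seeing the data, as were the class mix of TWT and the values without dividing cells. Depth limits the macrophage and non-classical classes of TWT, IL-6 KO and TKO, which held 12 to 84 cells.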
